A study of Drosophila melanogaster with 24 samples.

Results

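Late embryos of Drosophila melanogaster that lacked both maternal and zygotic Manf (Manf mzΔ96, here mz mutant) were compared with wild type embryos, to find which genes differed in whole animals just before hatching. All samples labelled with these genotypes were taken, 4 mz mutant and 4 wild type, 8 of the 24 samples of the series. They were fitted together with the 4 paternally rescued embryo samples, 12 embryo samples in all, which share one estimate of the spread. All animals were of w- background, and the wild type, labelled Wmix, came from a cross of w1118 with w-. The mz mutants carried the Δ96 deletion of Manf on a chromosome with FRT 82B, came from mothers whose germline lacked Manf and were labelled late stage 17, 21 to 24 h after egg laying. The wild type and rescued embryos were labelled late stage 17 with tracheae filling with air, and no hours were given for them. Rescued embryos also came from mothers without Manf and carried a Manf copy from the father. In mz mutants air does not enter the tracheae and the embryos remain unhatched. All embryos were picked under the microscope by phenotype, so that the stage was matched by eye. How many embryos a tube held is not given in the sources used here.

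Manf is the fly relative of the mammalian MANF and CDNF proteins, secreted factors with an endoplasmic reticulum (ER) signal that are known for supporting dopamine neurons and for a part in the response to unfolded proteins. Late in embryogenesis the fly epidermis builds the larval cuticle from chitin and cuticle proteins, and quinones made from dopamine cross-link and tan it. The same pathway from tyrosine to dopamine is switched on around wounds, together with JNK signalling, and the Toll, Imd and JAK/STAT pathways drive the humoral immune response.

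RNA was labelled with Cy3, Cy5 or Alexa488 and hybridised to Agilent 4x44K arrays. Values are the deposited log2 intensities of 45220 probes, in which a log2 fold change of 1 stands for a signal 2 times as high. In mz mutant and wild type samples the 25th percentile of all values was 7.05 and the 75th 11.74, and 5% lay below 6.59. Changes are given on the log2 scale, as mz mutant minus wild type. Sample numbers in the labels fall into a low series (1 to 4) and a high series (66 to 88), which was fitted as a block. Wild type values are given below in the order of samples 1, 2, 82 and 83, and mz mutant values in the order of samples 1, 4, 87 and 88. Wild type sample 1 and mz mutant samples 87 and 88 carried Cy5, wild type samples 2, 82 and 83 Cy3, and mz mutant samples 1 and 4 Alexa488. The effects of dye and genotype largely cannot be told apart. A gene was called when its adjusted p (limma, Benjamini-Hochberg over all genes) was below 0.01. The labels do not say whether samples came from separate crosses or egg collections, so these p values cover sample-to-sample variation, which may be technical.

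Manf was represented by 2 probes. At the brighter probe the wild type samples read 11.10, 11.28, 11.48 and 11.25, and the mz mutant samples read 11.29, 10.12, 9.48 and 9.14. Samples 4, 87 and 88 lay below every wild type sample, whereas the library labelled mz mutant 1 lay inside the wild type range. At the dimmer probe the wild type samples read 10.67, 10.82, 11.23 and 10.85 and the mz mutant samples 10.59, 9.40, 9.16 and 8.95, with mz mutant 1 just below the lowest wild type sample. The brighter probe gave a log2 fold change of -1.27 (SE 0.36), which was not called (adjusted p = 0.0431 over genes), and without mz mutant 1 it gave -1.69 (adjusted p = 6.29e-04). Within the low series, which holds mz mutant 1, the difference was -0.49, and within the high series -2.06. Rescued samples lay between the groups, at 10.52, 10.63, 10.91 and 10.83 at the brighter probe. The sources used here do not place the probes relative to the Δ96 deletion.

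**Figure D1:**
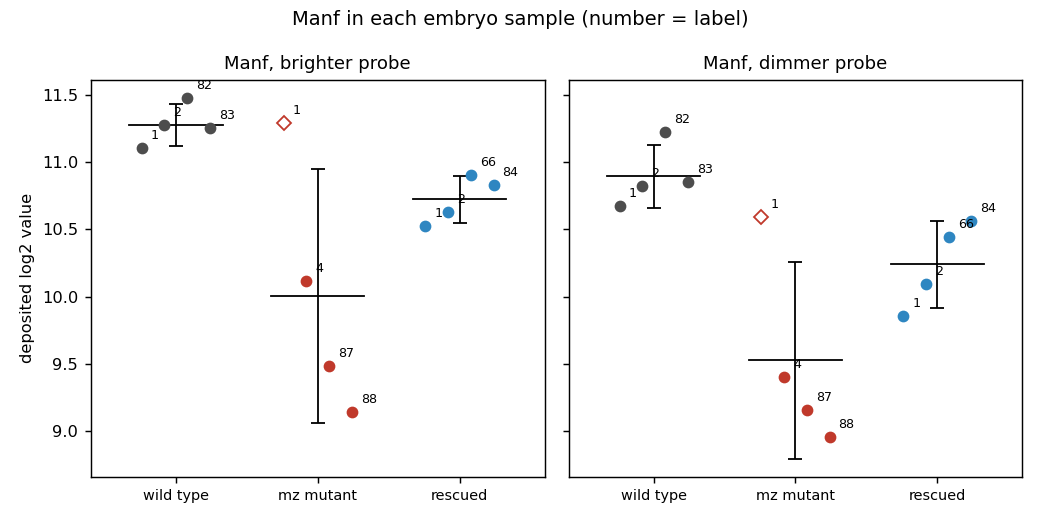
Deposited log2 value of the brighter and the dimmer Manf probe (y axis) in each wild type, mz mutant and rescued embryo sample, with numbers from the labels and the mean and SD (n = 4) as lines and bars. The open diamond, mz mutant 1, reads 11.29 at the brighter probe, within the wild type range of 11.10 to 11.48, and the other mz mutant samples lie below both other groups.

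The library labelled mz mutant 1 stood apart at other genes too. Among the 3367 probes called without it, its value lay a median of 38.6% of the way from the wild type mean to the mean of mz mutants 4, 87 and 88, on the mz mutant side of the wild type mean at 83.9% and within the wild type range at 30.4%. The same measure for mz mutants 4, 87 and 88, over the 630, 316 and 492 probes called without each, was 120%, 100% and 102%. Of those probes 1.59%, 1.58% and 1.63% lay within the wild type range. For these 3 samples both the choice of probes and the reference mean include mz mutant 1, so the comparison with mz mutant 1 is not on equal terms. Over all probes mz mutant 1 correlated at 0.978 and 0.985 with wild type 1 and 2 of its own series. It correlated at 0.964 and 0.961 with wild type 82 and 83, and at 0.963 to 0.972 with the other mz mutants. The other low series mutant, mz mutant 4, correlated with the 4 wild type samples at 0.941 to 0.947. Counts are therefore given with and without it, as are the genes whose call turned on it.

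**Figure D2:**
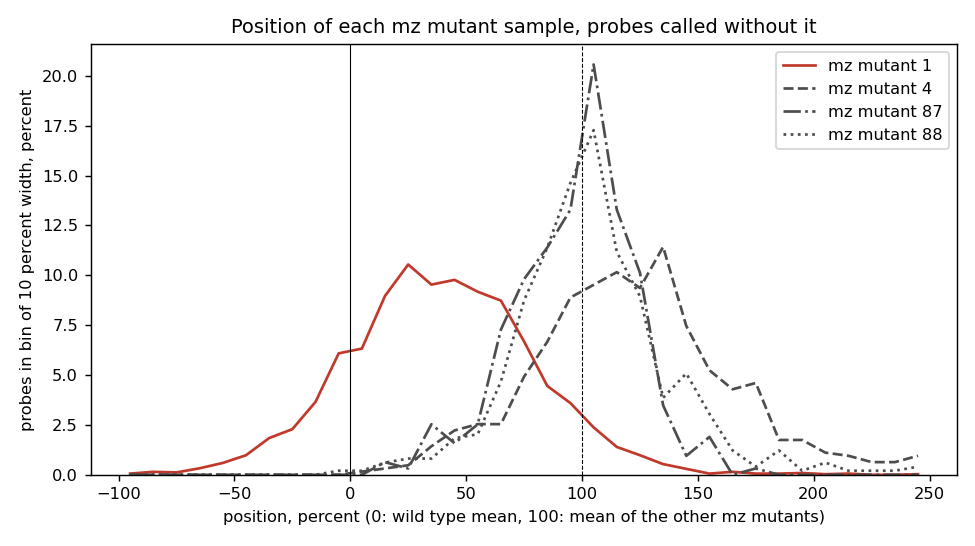
Position of each mz mutant sample between the wild type mean (0%) and the mean of the other mz mutant samples (100%), over the probes called without that sample (x axis, bins of 10% width; y axis, percent of those probes). The curve of mz mutant 1 lies to the left, with a median of 38.6%, and those of samples 4, 87 and 88 centre on 120%, 100% and 102%. For samples 4, 87 and 88 the probes and the reference mean include mz mutant 1.

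In the 12 samples 1028 of 45220 probes were called (2.27%), 660 higher and 368 lower in mz mutants. Counted as genes, each read by its brightest probe, 499 of 12799 were called (3.9%), with 293 higher (2.29%) and 206 lower (1.61%). Without mz mutant 1 the counts were 3367 probes (7.45%) and 1442 genes (11.3%), 778 higher (6.08%) and 664 lower (5.19%). Of the 499 genes 493 were called in both fits, each in the same direction. The 4 mz mutant and 4 wild type values did not overlap for 13.5% of all genes. In rescued embryos 6 genes were called against the same wild type samples (0.0469%). Leaving out any other single sample lowered the count of genes, to between 141 without mz mutant 87 and 314 without mz mutant 4, and with dye as a covariate 65 genes were called, 59 of them higher.

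Cuticle, immune effector and growth factor genes were among the 12 largest increases. Single probes are given here, with p values adjusted over all probes. The cuticle protein gene Cpr47Ea read 9.36, 11.14, 8.49 and 8.65 in wild type and 14.98, 14.72, 13.77 and 14.37 in mz mutants. All 4 mz mutants, sample 1 included, were far above the wild type at this probe, which rose with a log2 fold change of 5.05 (SE 0.36, adjusted p = 8.68e-05). Its other probe, the brighter one, gave 1.53 (SE 0.62) and was not called. CG13116 read 8.04, 8.48, 8.63 and 7.77 against 11.76, 13.23, 12.72 and 12.94 and rose at both of its probes, with 4.43 (SE 0.43, adjusted p = 3.70e-04) at the brighter one. The gene sfl, which encodes a sulphotransferase of heparan sulphate synthesis, read 6.71, 7.37, 6.65 and 6.88 against 10.85, 11.30, 10.68 and 10.94 at its dimmer probe and rose by 4.04 (SE 0.20, adjusted p = 2.91e-05), with both probes called. Its wild type values lay near the low end of the scale. The amino acid transporter gene path rose by 3.69 (adjusted p = 0.00356), and CG4757, CG8539 and CG11893 by 4.39 (adjusted p = 0.00197), 3.73 (adjusted p = 0.00499) and 3.67 (adjusted p = 0.00393). CG6983 is an exception among these. It rose by 3.93 at its dimmer probe, where rescued samples read 11.54, 11.80, 11.39 and 11.61 and also differed from wild type, with 3.74 (adjusted p = 1.47e-04), while its brighter probe stood at -0.73 (SE 0.19) and was not called.

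The largest decreases were led by Ect3, a beta-galactosidase gene, which read 11.88, 12.07, 12.07 and 11.54 in wild type and 11.13, 8.59, 8.30 and 7.75 in mz mutants. The brightest probe is used here and in what follows, with p values adjusted over genes. Samples 4, 87 and 88 lay far below the wild type and sample 1 just below it, and Ect3 fell with -2.94 (SE 0.50, adjusted p = 0.0053), or -3.62 (adjusted p = 7.76e-06) without mz mutant 1. Its values in rescued samples were 10.95, 10.95, 10.53 and 10.64, below the wild type range, with -1.12 (adjusted p = 0.871). CG10597 read 12.93, 13.24, 13.31 and 12.63 against 11.84, 10.24, 9.84 and 9.32 and fell with -2.72 (SE 0.40, adjusted p = 0.00284). The UDP-glycosyltransferase gene Ugt37C1 read 12.83, 13.06, 14.48 and 14.22 against 11.81, 10.50, 11.72 and 11.22 and fell with -2.33 (SE 0.30, adjusted p = 0.00132). CG8664 fell with -2.30 (SE 0.28, adjusted p = 0.00108), and CG12229, CG6656, CG11470, CG4408, CG8745, CG15201 and CG32248 had log2 fold changes between -2.30 and -1.98. These lower genes were taken only from probes whose groups do not overlap, so that separation was fixed by the selection. In each gene of this paragraph mz mutant 1 was the mz mutant sample nearest to wild type.

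Of 7 measured genes listed under dopamine synthesis 3 rose, and of 6 that break down tyrosine, the precursor of dopamine, 2 fell. The dopa decarboxylase gene Ddc read 13.13, 13.18, 12.20 and 12.38 in wild type and 14.93, 15.12, 13.88 and 14.17 in mz mutants. Both series moved alike, with mz mutant 1 as high as the others, and Ddc rose with a log2 fold change of 1.80 (SE 0.14, adjusted p = 6.98e-05), or 1.80 (adjusted p = 7.76e-05) without mz mutant 1. The tyrosine hydroxylase gene ple read 13.05, 12.50, 11.58 and 10.55 against 13.92, 14.76, 14.21 and 14.55. Wild type samples spread widely in ple, yet the groups did not overlap, and it rose by 2.44 (SE 0.46, adjusted p = 0.00813), at 3 of 4 probes. Pu, which encodes the GTP cyclohydrolase that starts the synthesis of the hydroxylase's cofactor, read 12.90, 13.21, 11.59 and 12.82 against 14.53, 15.15, 14.20 and 14.54 and rose by 1.98 (SE 0.26, adjusted p = 0.00157). The other 4 genes listed there were not called, among them pr at -0.73 (adjusted p = 0.0481) and Catsup at -0.56 (adjusted p = 0.453). In rescued samples Ddc, ple and Pu stood at 0.19, -0.28 and 0.09, none of them called. Among 22 genes of cross-linking and pigment only yellow-b of the yellow family was called, with 1.82 (SE 0.34, adjusted p = 0.00814). Together 4 of 29 tanning and dopamine genes were called (13.8%, beside 3.9% of all genes), all higher.

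Tyrosine aminotransferase (Tat), the first enzyme of tyrosine breakdown, read 12.69, 12.41, 12.12 and 12.44 in wild type and 11.22, 10.45, 10.29 and 10.38 in mz mutants at its brighter probe. All mz mutants lay below all wild type samples, while rescued samples, at 13.33, 12.87, 12.75 and 12.57, did not. Tat fell with -1.83 (SE 0.18, adjusted p = 3.25e-04), at both probes. Homogentisate dioxygenase (hgo), a later step, read 12.45, 12.75, 12.23 and 12.61 against 11.72, 10.49, 10.29 and 10.84 and fell with -1.67 (SE 0.27, adjusted p = 0.00414). The further enzymes Hpd, Faa and GstZ2 stood at -1.27, -1.18 and -1.50, with adjusted p values of 0.0125, 0.0107 and 0.0129 in the 12 samples, and fell without mz mutant 1, with adjusted p = 0.00886, 0.00301 and 0.00194. All 6 measured genes of tyrosine breakdown were negative, with a median of -1.38 beside -0.05 over all genes. CG6638 and Mccc1, enzymes of leucine breakdown, fell with -0.95 (adjusted p = 0.00903) and -0.90 (adjusted p = 0.00836). Of all 29 amino acid breakdown genes 4 were called, all lower (13.8%, beside 3.9% of all genes). Without mz mutant 1 there were 10 lower and 1 higher (37.9%, beside 11.3% of all genes).

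Cuticle genes moved in both directions. The chitin synthase gene kkv read 12.82, 12.77, 11.93 and 12.04 in wild type and 14.03, 15.08, 14.02 and 14.47 in mz mutants. Every mz mutant lay above every wild type sample, in both series (1.76 in the low and 2.26 in the high series), and kkv rose by 2.01 (SE 0.21, adjusted p = 4.24e-04). Knickkopf (knk), which organises chitin fibres outside the cell, read 11.43, 11.46, 11.19 and 11.36 against 12.56, 13.36, 13.14 and 13.47 and rose by 1.78 (SE 0.20, adjusted p = 5.95e-04). The chitin-binding gene obst-I rose by 0.89 (adjusted p = 0.00881), and the chitinase gene Cht10 fell with -1.17 (adjusted p = 0.00696). The remaining 56 of 60 measured chitin genes were not called, so that 6.67% of the list were called (beside 3.9% of all genes), with a median of -0.02.

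Of 89 measured structural proteins of the Cpr family 73 stood below 0, beside 7360 of 12799 over all genes. Their median log2 fold change was -0.36, beside -0.05 over all genes. At the threshold 7 fell and 2 rose (10.1%, beside 3.9% of all genes). Cpr49Ae read 10.33, 10.21, 11.19 and 10.86 against 9.79, 8.27, 8.46 and 8.48 and fell with -1.90 (SE 0.34, adjusted p = 0.00715). Acp1 read 10.58, 10.54, 10.72 and 10.48 against 9.93, 8.39, 7.60 and 7.59 and fell with -2.20 (SE 0.42, adjusted p = 0.00872). In both genes mz mutant 1 lay between the wild type and the other mz mutants. Cpr49Af, Cpr65Ay, Cpr78Ca, Cpr60D and Cpr11B fell as well, with log2 fold changes between -2.05 and -0.85. Cpr64Ac, by contrast, read 12.61, 11.44, 12.88 and 11.97 against 14.57, 15.01, 15.05 and 14.90 and rose by 2.66 (SE 0.40, adjusted p = 0.0033), and Cpr49Ac rose by 2.64 (SE 0.51, adjusted p = 0.00904). Without mz mutant 1 the counts were 16 lower and 2 higher (20.2%, beside 11.3% of all genes). In rescued samples the median of the family was -0.10. None of 25 Tweedle cuticle proteins and none of 24 Osiris genes, both groups of insect cuticle genes, was called in the 12 samples, with medians of -0.12 and -0.08.

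**Figure D3:**
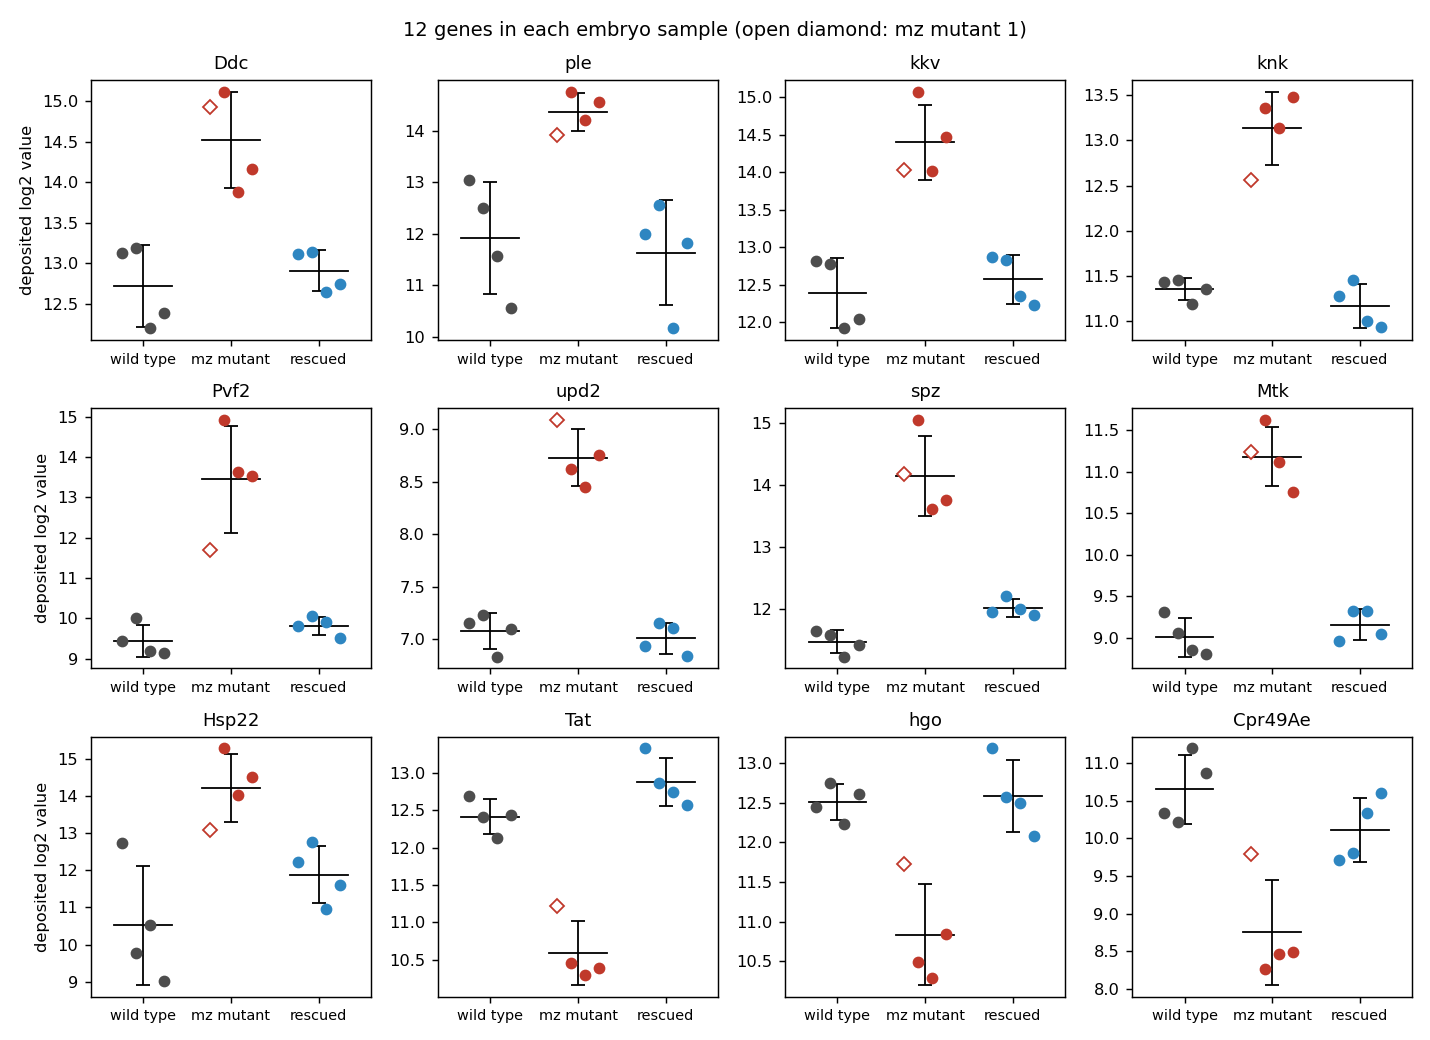
Deposited log2 values (y axis, separate scale for each gene) of 12 genes in each wild type, mz mutant and rescued sample, in label order, with the mean and SD (n = 4) as lines and bars and mz mutant 1 as an open diamond. Ddc, ple, kkv, knk, Pvf2, upd2, spz, Mtk and Hsp22 are higher and Tat, hgo and Cpr49Ae lower in mz mutants, with no overlap with wild type, and mz mutant 1 is the mz mutant sample nearest to wild type in ple, knk, Pvf2, Hsp22, Tat, hgo and Cpr49Ae.

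Of the wound response, secreted ligands, matrix enzymes and a receptor were among the genes that rose. Pvf2, a ligand of the PDGF and VEGF type, read 9.44, 10.01, 9.19 and 9.15 in wild type and 11.70, 14.92, 13.64 and 13.53 in mz mutants. Mutant 4 was the highest and mutant 1 the lowest of the mz mutants, still above every wild type sample, and Pvf2 rose with 4.0 (SE 0.53, adjusted p = 0.0016). The cytokine gene upd2, a ligand of the JAK/STAT pathway, read 7.15, 7.23, 6.83 and 7.10 against 9.09, 8.62, 8.45 and 8.76 and rose by 1.65 (SE 0.14, adjusted p = 1.44e-04). Here mz mutant 1 was the highest sample. Its relative upd1 rose by 1.83 (SE 0.26, adjusted p = 0.00232) and the second Pvr ligand Pvf1 by 1.21 (SE 0.23, adjusted p = 0.00913). Matrix metalloproteinase Mmp2 and the metalloproteinase inhibitor Timp rose together, with 1.48 (adjusted p = 0.00618) and 1.22 (adjusted p = 0.00399). The TNF receptor gene grnd rose by 1.05 (adjusted p = 0.00141) and the transcription factor gene Ets21C by 1.73 (adjusted p = 0.00839). Fos (kay), a transcription factor that JNK signalling acts on, stood at 1.59 (adjusted p = 0.0317) in the 12 samples and rose without mz mutant 1, with 2.10 (adjusted p = 2.23e-04). Ilp8, an insulin and relaxin family peptide of damaged larval tissue, stood at 2.01 (adjusted p = 0.0187) and rose without mz mutant 1, with 2.24 (adjusted p = 0.00947).

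Of 30 wound and JNK genes 8 were called, all higher (26.7%, beside 3.9% of all genes, 2.29% higher). This list, like the others, was written with earlier results of these data known, so its share is not independent support. They were 6 of 11 targets and effectors, all 11 of which were positive, 1 of 6 transcription factors and 1 of 13 kinases and regulators. The median log2 fold change of the targets was 1.5 in mz mutants and 0.04 in rescued samples, which share the wild type controls.

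The immune genes that rose included ligands, proteases, recognition proteins and effectors. In the Toll pathway the ligand gene spz read 11.66, 11.59, 11.24 and 11.43 in wild type and 14.18, 15.04, 13.62 and 13.75 in mz mutants. No value overlapped, mz mutant 1 was the second highest, and spz rose by 2.67 (SE 0.21, adjusted p = 9.41e-05). Persephone (psh), a protease that acts upstream of the ligand, read 10.36, 10.65, 9.98 and 9.73 against 11.82 to 12.05 in the 4 mz mutants and rose by 1.75 (SE 0.18, adjusted p = 3.81e-04). The serpin gene Spn88Eb read 10.26, 9.60, 9.77 and 9.41 against 12.40, 12.58, 12.67 and 13.35 and rose by 2.99 (SE 0.31, adjusted p = 4.24e-04). Sp7, a protease of the melanisation cascade, rose by 1.56 (adjusted p = 0.00319) and the Toll kinase gene pll by 0.88 (adjusted p = 0.00172). The NF-kappaB factors dl and Dif stood at 0.93 (adjusted p = 0.0402) and 0.73 (adjusted p = 0.0245) and rose only without mz mutant 1, with 1.23 (adjusted p = 8.96e-04) and 0.88 (adjusted p = 0.00401). In the Imd pathway the adaptor gene imd stood at 1.14 (adjusted p = 0.0105) and rose only without mz mutant 1, with 1.31 (adjusted p = 0.00234).

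Among receptors and recognition proteins, lectin-24A, a C-type lectin gene, read 8.32, 9.11, 8.98 and 7.93 in wild type and 12.93, 12.37, 12.97 and 12.12 in mz mutants at its brighter probe. The 4 mz mutants lay within 1 log2 unit of each other and well above the wild type, with a log2 fold change of 4.01 (SE 0.30, adjusted p = 6.98e-05). PGRP-LF, an inhibitor of Imd signalling, rose by 1.16 (adjusted p = 0.00458) and the lysozyme gene LysX by 1.76 (adjusted p = 0.00733). Hemolectin (Hml), a clotting factor of haemocytes, the blood cells of the fly, read 10.81, 9.78, 10.23 and 10.20 against 11.45, 12.29, 12.41 and 12.28 and rose by 1.85 (SE 0.24, adjusted p = 0.00144). The phagocytic receptor gene eater, also of haemocytes, read 9.75, 9.75, 9.44 and 9.75 against 9.03, 8.62, 8.80 and 8.61 and fell with -0.91 (SE 0.14, adjusted p = 0.00336). The other 3 haemocyte markers listed, NimC1, crq and Sr-CI, stood at 0.12, 0.29 and -0.12 and were not called. In whole animals fewer cells of a type and less RNA per cell cannot be told apart.

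Immune effector genes rose as well. Metchnikowin (Mtk), an antimicrobial peptide gene, read 9.31, 9.06, 8.85 and 8.80 in wild type and 11.23, 11.62, 11.12 and 10.75 in mz mutants and rose by 2.18 (SE 0.16, adjusted p = 6.98e-05). BomT2, of the Bomanin peptides, read 9.79, 9.40, 9.33 and 9.15 against 12.80, 15.04, 13.40 and 13.84 at its brightest probe. Mutant 4 was highest and mutant 1 lowest, all above the wild type, with 4.35 (SE 0.40, adjusted p = 2.60e-04), at 3 of 4 probes. BomS4 and the stress peptide gene TotC rose by 3.08 (adjusted p = 0.00453) and 2.67 (adjusted p = 0.00204), though the other probe of TotC stood at -0.02 and was not called. The peptide genes CecB, Drsl5 and Drsl1 rose by 1.51 (adjusted p = 0.00778), 0.99 (adjusted p = 0.0047) and 0.75 (adjusted p = 0.0085). Only 1 of the 3 probes of Drsl5 was called over all probes, and the lowest stood at 0.06. BomT3 rose at its dimmer probe, with 3.76 (adjusted p = 4.61e-04) over probes, while its brighter one stood at 2.94 (adjusted p = 0.0214) over genes. Listericin stood at 3.85 (adjusted p = 0.0103) and rose without mz mutant 1, with 4.43 (adjusted p = 0.00232). The lowest of its 3 probes stood at -0.01 in the 12 samples.

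Of 28 antimicrobial peptide, Bomanin and Turandot genes 7 were called, all higher (25%, beside 3.9% of all genes). DptA, AttA, AttC, CecA1, CecA2, CecC and Dro were among the listed peptide genes with no probe of that name and are not counted. Of the 28, 25 were positive, beside 5439 of 12799 over all genes, with a median of 1.38. All 9 Bomanin and Listericin genes were positive, with a median of 2.70. In BomS4 (11.63, 10.43, 11.93 and 10.26) and BomT3 (11.52, 9.26, 10.12 and 8.98) the wild type spread widely, with samples 1 and 82 above samples 2 and 83. Of 78 recognition and signalling genes 11 rose and 1 fell (15.4%, beside 3.9% of all genes), with 54 positive and a median of 0.49. Within these, 5 of 22 Toll genes, 2 of 8 JAK/STAT genes and none of 10 Imd genes were called. The 2 JAK/STAT genes, upd1 and upd2, are counted among the 8 called wound and JNK genes too. In rescued samples the medians of the 28 and of the 78 genes were -0.04 and 0.03.

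**Figure D4:**
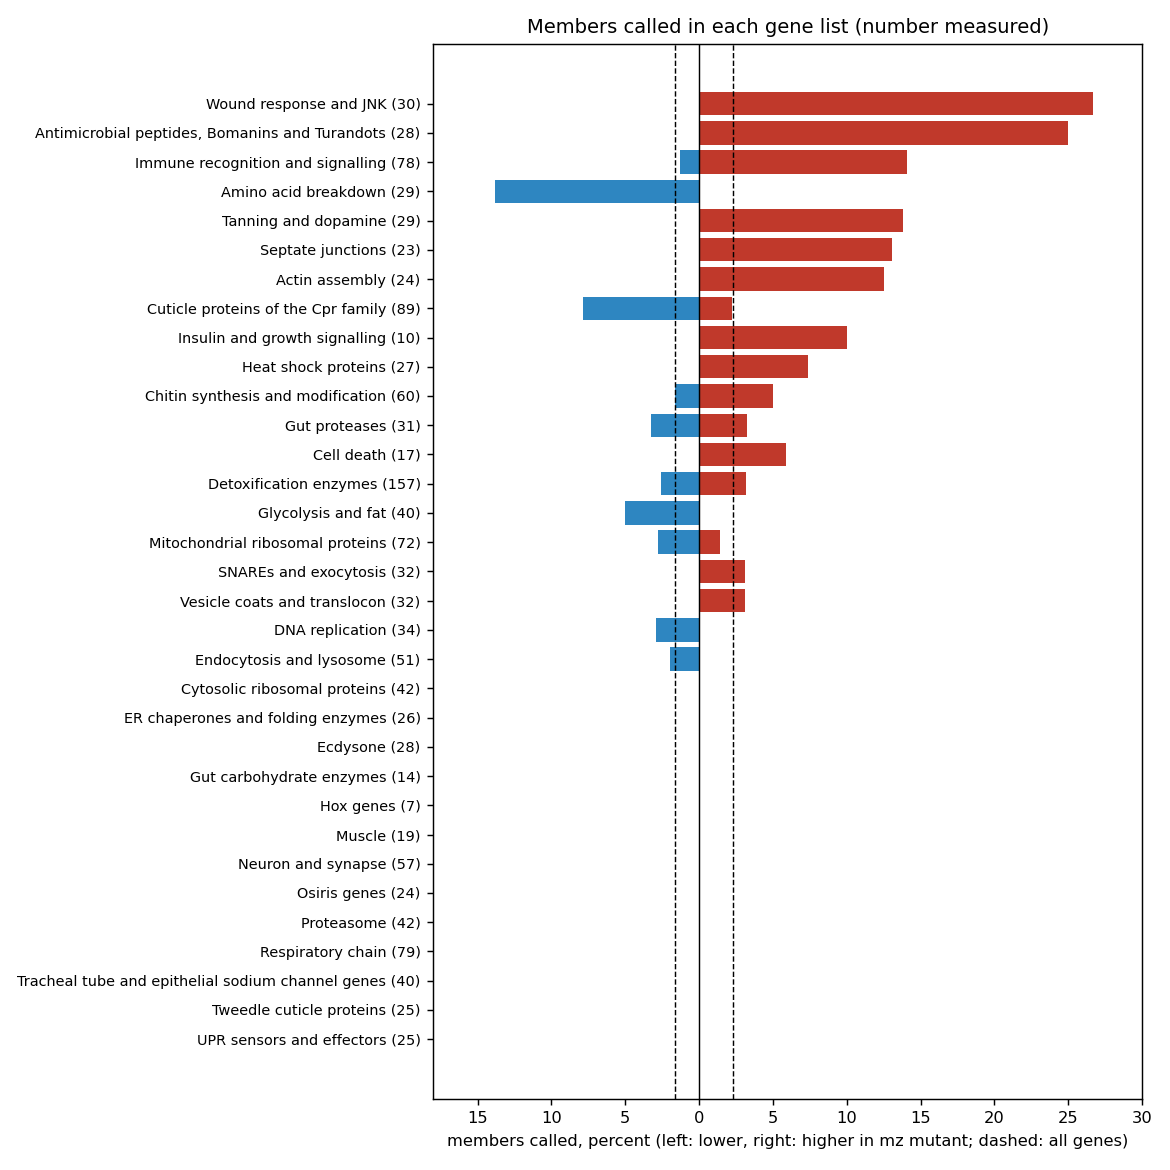
Percent of the measured members of each gene list (number in brackets) called in the 12 samples, higher to the right in red and lower to the left in blue, with the share of all genes as dashed lines (2.29% higher, 1.61% lower). Wound response and JNK genes (26.7%) and antimicrobial peptides, Bomanins and Turandots (25%) have the largest shares, and 13 of the lists hold no called member. The lists were written with earlier results of these data known, so their order is a description and not a test.

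None of the measured genes listed under the ER stress response, for which mammalian MANF is known, was called in the 12 samples. Xbp1, CrebA, Sel1L, Calr, Hyou1 and Ubqn were among the listed genes with no probe of that name, which are not counted. The paper reports Ubqn as higher in these mutants. Of 26 ER chaperones and folding enzymes 0 were called, with a median of 0.03, and of 25 sensors and effectors of the unfolded protein response 0, with a median of 0.27. At an unadjusted p below 0.05 in the same limma fit the counts were 4 of 26 and 7 of 25, beside 27.2% of all genes. Sil1, a nucleotide exchange factor of the ER chaperone BiP, read 10.01, 10.18, 10.04 and 10.74 in wild type and 10.74, 13.39, 12.75 and 12.91 in mz mutants. Samples 4, 87 and 88 stood more than 2 log2 units above the highest wild type sample and mz mutant 1 at its level. Sil1 gave 2.21 (SE 0.46, adjusted p = 0.0128) in the 12 samples and rose without mz mutant 1, with 2.75 (adjusted p = 1.89e-04). The kinase PEK, a sensor of unfolded proteins, read 12.29, 12.54, 12.44 and 12.59 against 12.42, 13.79, 13.60 and 13.75, gave 0.92 (SE 0.26, adjusted p = 0.0402) and rose without mz mutant 1, with 1.24 (adjusted p = 2.44e-04). Ire1, the other kinase sensor, stood at 0.70 (adjusted p = 0.27) and rose without mz mutant 1, with 1.14 (adjusted p = 0.009). So did Irbp18, a transcription factor gene, at 1.04 (adjusted p = 0.0112) and then 1.26 (adjusted p = 4.33e-04), the pseudokinase gene trbl, at 0.73 (adjusted p = 0.0536) and then 0.96 (adjusted p = 0.00262), and the ER oxidase gene Ero1L, at 0.67 (adjusted p = 0.0294) and then 0.79 (adjusted p = 0.00947). Without mz mutant 1 the chaperone list had 2 higher and 1 lower of 26 (11.5%) and the sensor and effector list 4 higher of 25 (16%), beside 11.3% of all genes. The BiP gene itself, Hsc70-3, chosen after its values were seen, stood at 0.79 (adjusted p = 0.263) and at 0.87 (adjusted p = 0.245) and was called in neither.

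The 2 heat shock genes called in the 12 samples were small heat shock genes. Hsp22, which acts in mitochondria, read 12.73, 9.78, 10.53 and 9.02 in wild type and 13.09, 15.27, 14.02 and 14.50 in mz mutants. Wild type 1 was close to mz mutant 1, but the groups did not overlap, and Hsp22 rose by 3.70 (SE 0.68, adjusted p = 0.0078). CG4461 rose by 1.35 (adjusted p = 0.00288), and Hsp26 and CG4456 stood at 2.21 (adjusted p = 0.0197) and 2.58 (adjusted p = 0.0109) and rose without mz mutant 1. Of 27 heat shock genes 2 were called (7.41%, beside 3.9% of all genes), with 21 positive and a median of 0.54. There were 6 without mz mutant 1, all higher (22.2%, beside 11.3% of all genes). They were 4 small heat shock genes, 1 of the Hsp70 and Hsp90 group and 1 cochaperone or factor. The 11 measured Hsp70 and Hsp90 genes had a median of 1.02 in the 12 samples, with 8 positive and none called. Hsp83, which the paper reports as higher in these mutants, had no probe of that name here, nor had Hsp70Ab, Hsp70Bbb and Hsp23.

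Genes of epithelial structure were higher in part. The actin regulators cib, a beta-thymosin gene, the formin gene dia and the capping protein gene cpa rose by 1.96 (adjusted p = 0.00298), 1.98 (adjusted p = 0.00146) and 1.19 (adjusted p = 0.00443). They were 3 of 24 actin genes (12.5%, beside 3.9% of all genes). In cib all 10 probes were called. Its values were 12.79, 12.88, 11.77 and 12.08 in wild type and 13.82, 15.22, 13.98 and 14.32 in mz mutants. The diaphanous gene dia read 10.67, 10.76, 10.13 and 10.26 against 11.78, 12.40, 12.68 and 12.87, and its rescued samples, at 12.06, 11.65, 11.66 and 11.24, lay above the wild type too, with 1.20 (adjusted p = 0.175). Of 23 septate junction genes 3 were called, all higher (13%, beside 3.9% of all genes). These were l(2)gl, Gli and scrib, with 1.45 (adjusted p = 3.60e-04), 1.01 (adjusted p = 0.0043) and 0.74 (adjusted p = 0.00883). Of the 6 probes of scrib none was called over all probes, and the lowest stood at -0.42. The caspase gene Dronc read 11.87, 11.88, 11.28 and 11.08 against 12.73, 14.09, 13.25 and 13.63 and rose by 1.90 (SE 0.26, adjusted p = 0.00214). It was the only one called of 17 cell death genes (5.88%, near the 3.9% of all genes). The listed genes rpr, hid, Diap1, Drice and Decay had no probe of that name and are not counted.

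The COPII coat gene Sec13 and the SNARE gene Syb rose by 1.65 (adjusted p = 0.0022) and 0.88 (adjusted p = 0.00768), each 1 of 32 in its list (3.12%, near the 3.9% of all genes). In rescued samples they stood at 1.21 and 0.68, not called. Listed genes with no probe of that name are not counted, among them the coat genes Sar1 and Sec23. So it was with Syx6, Syx13, Syx18 and Rala, which the paper reports as changed in these mutants. Ect3, described above, was the only one called of 51 endocytosis and lysosome genes (1.96%). The growth kinase gene Akt rose by 0.62 (adjusted p = 0.00955) at its brightest probe, while the lowest of its 3 probes stood at -0.17. Akt was the only one called of 10 measured insulin and growth genes (10%, beside 3.9% of all genes). The replication gene Cdc45 fell with -0.58 (adjusted p = 0.008), the only one called of 34 replication genes (2.94%, near the 3.9% of all genes).

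In metabolism, the lipase gene mag and the triglyceride synthesis gene mdy fell, with -1.20 (adjusted p = 0.00827) and -1.09 (adjusted p = 0.00956). They were the only ones called of 40 glycolysis and fat genes (5%, near the 3.9% of all genes). The trypsin gene thetaTry fell with -1.45 (adjusted p = 0.00984). The serine protease gene Ser7 read 9.27, 8.94, 9.18 and 9.24 against 10.93, 12.65, 12.09 and 12.42 and rose by 2.86 (SE 0.30, adjusted p = 4.24e-04). Only thetaTry and Ser7 were called of 31 gut protease genes (6.45%, beside 3.9% of all genes). Of 157 detoxification genes 5 rose and 4 fell (5.73%, beside 3.9% of all genes). They were 5 higher and 3 lower of 87 cytochrome P450 genes (9.2%), 1 lower of 35 UDP-glycosyltransferases (2.86%) and none of 35 glutathione S-transferases. Cyp49a1 read 8.38, 7.80, 8.30 and 8.68 in wild type, 10.32, 11.08, 10.94 and 11.45 in mz mutants and 10.56, 11.09, 10.64 and 10.22 in rescued samples. Mutant and rescued samples both lay above the wild type, with 2.66 (SE 0.27, adjusted p = 3.69e-04) in mz mutants and 2.34 (adjusted p = 0.0096) in rescued samples. Cyp4p2 rose by 2.99 (SE 0.35, adjusted p = 8.56e-04) and gave 2.16 (adjusted p = 0.0524) in rescued samples. Cyp12e1, Cyp4p3 and Cyp4ac3 rose by 0.77 (adjusted p = 0.00339), 0.92 (adjusted p = 0.00797) and 1.28 (adjusted p = 0.00948). No probe of Cyp4p3 or Cyp4ac3 was called over all probes, and the other probe of Cyp4ac3 stood at -0.0007. Cyp305a1, Cyp313a4 and Cyp313a3 fell with -1.15 (adjusted p = 6.70e-04), -1.17 (adjusted p = 0.00502) and -0.90 (adjusted p = 0.00658).

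Mitochondrial ribosomal proteins were negative in 67 of 72 measured genes, beside 7360 of 12799 over all genes. Their median was -0.46, beside -0.05 over all genes. Of the list 4.17% were called, near the 3.9% of all genes. Of these, mRpL52 and mRpS35 fell, with -0.95 (adjusted p = 0.00336) and -0.96 (adjusted p = 0.00934). The exception was mRpS17, which read 9.53, 8.63, 9.30 and 9.44 in wild type, 10.75, 11.71, 11.49 and 11.70 in mz mutants and 11.88, 12.29, 11.88 and 11.84 in rescued samples. It rose by 2.19 (SE 0.25, adjusted p = 7.27e-04) in mz mutants and by 2.75 (adjusted p = 0.00543) in rescued samples. Without mz mutant 1, 9 genes of this list were lower and 1 higher (13.9%, beside 11.3% of all genes).

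No member was called in the 12 samples among 42 cytosolic ribosomal, 79 respiratory chain, 42 proteasome, 57 neuron and synapse, 19 muscle, 28 ecdysone and 7 Hox genes, or among 40 genes of tracheal tubes and epithelial sodium channels. At an unadjusted p below 0.05 in limma the counts in these lists were 6, 8, 5, 9, 2, 11, 1 and 11, beside 27.2% of all genes, and they were 2 and 3 among the Tweedle and Osiris genes. Without mz mutant 1 the tracheal and channel list had 1 lower of 40 (2.5%) and the neuron list 4 lower of 57 (7.02%), both below the 11.3% of all genes. Among the 4 were the hormone genes ETH and Eh, which act in moulting behaviour. ETH stood at -0.76 (adjusted p = 0.0294) and then -0.89 (adjusted p = 0.00874), and Eh at -0.69 (adjusted p = 0.0287) and then -0.84 (adjusted p = 0.00417).

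Of 27 measured markers of 9 tissues 2 were called in the 12 samples (beside 3.9% of all genes), Hml and the epidermal gene kkv, both described above. Without mz mutant 1 the glial gene moody passed as well (beside 11.3% of all genes), with 0.85 (adjusted p = 0.00875). The fat body genes Fbp1 and Lsp2 and the female germline genes Cp36 and Yp1 had means between 6.95 and 7.45, near the low end of the scale, while the fat body gene apolpp had a mean of 14.17. The neuronal, muscle and midgut markers had means between 9.76 and 14.71. The highest value of a sample was shared by many probes in wild type 83 (1576 probes at 14.75) and wild type 82 (441 probes at 15.09), beside 1 to 319 in the other wild type and mz mutant samples. Of the 206 lower genes 8 had a wild type value at that ceiling, where the difference can be understated, and no called gene had a whole group there. By chromosome, 5.1% of the 3040 genes of arm 3R, which carries Manf, were called, and between 3.79% and 3.93% of those of arms 2L, 2R and 3L, beside 2.98% of 1912 on X and 1.47% of 68 on chromosome 4.

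Of the genes named that were called in the 12 samples, 98 in all, each had the same sign in the low and in the high series. The call itself rests on both series, so that this agreement was largely fixed by the selection. In neither series did wild type and mz mutant samples share a dye. Called also in each of the 8 fits that left out 1 sample were 34, and called with dye as a covariate 18. Among those 18 were Ddc, Tat, knk, dia, l(2)gl, upd2, spz, psh, Spn88Eb, Mtk, lectin-24A, Cyp49a1, Cyp313a4, CG13116 and sfl. In the fit with dye the remaining 80 were not called. For 16 of the 98, Hsp22, Akt and Syb among them, no probe passed when p values were adjusted over all probes.

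**Figure D5:**
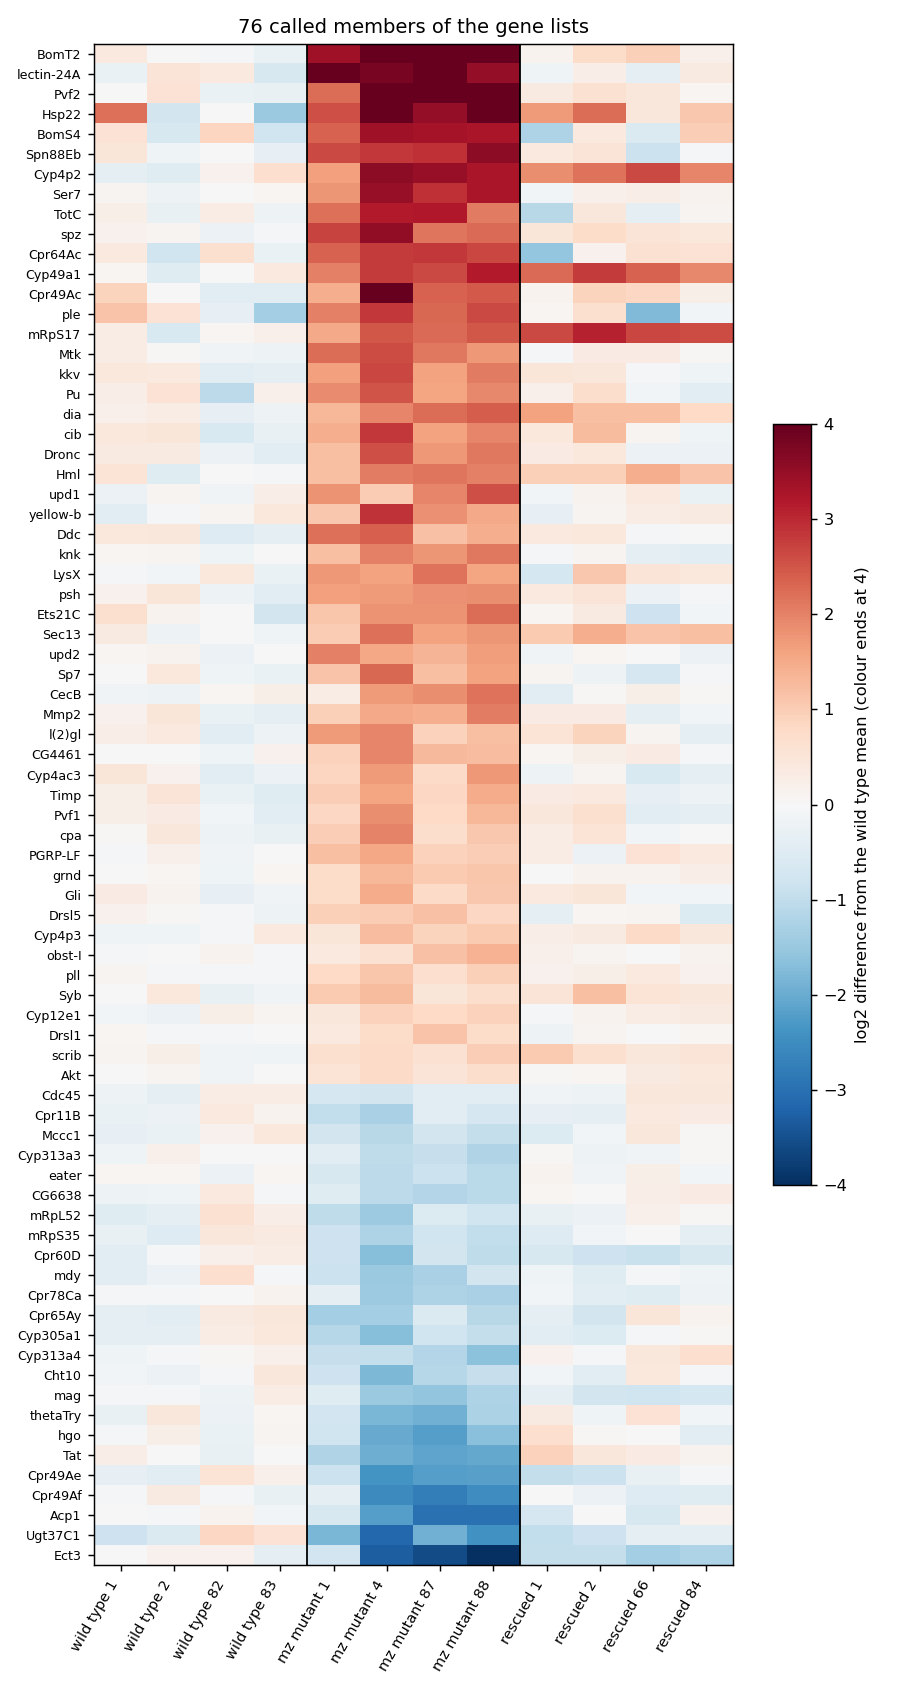
Log2 difference from the wild type mean (colour, ending at 4 in either direction) of the 76 called members of the gene lists (rows, ordered by log2 fold change) in each of the 12 embryo samples (columns). The mz mutant columns are red above and blue below, often paler in mz mutant 1, and the rescued columns are mostly pale, with exceptions such as Cyp49a1, Cyp4p2, mRpS17, dia and Ect3.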

How the data were processed

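Expression was measured in 24 samples on Agilent arrays. The authors scanned the arrays, read median intensities per spot in GenePix Pro, and used limma for preprocessing; the background correction and normalization settings are not given in the sources used here. The deposited values are log2 intensities, with sample medians of 9.15 in the 12 embryo samples, and were used as deposited. Spot backgrounds were not used here, so no precision per spot can be given, and the number of samples limits the precision.

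With limma 3.58.1 in R 4.3.3 a linear model with 3 group means and the series block was fitted to the 12 embryo samples, and again to 11 without mz mutant 1. P values were adjusted by Benjamini-Hochberg with a threshold of 0.01, over 45220 probes or over 12799 genes, each read by the probe of highest mean. The script was tested on simulated data. Gene names came from the platform annotation for 29872 probes, 28743 of them matched in RefSeq by identifier, and listed genes with no probe of that name are not reported. The members, lists and rules were chosen with earlier results of these data known. Named were Manf, the 12 largest changes each way among called probes with groups that do not overlap, up to 6 called members of each list each way, and members called only without mz mutant 1. Acp1, Pvf1, Ets21C, Sp7, pll, PGRP-LF, LysX and Drsl1, called members past the first 6, were chosen after their values were seen. Lists with no called member are given by counts. Promoter motifs, planned at first, were not analysed here. The study's methods give 3 biologically independent samples per genotype, the labels 4, and all 4 were used. Whether 1 of the 4 repeats another is not given.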

Additional observations from a re-analysis of the deposited data

Results flagged for a closer look

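In each gene named, the 4 wild type and the 4 mz mutant values were searched for 1 sample lying apart, by the gap to its nearest neighbour divided by the range of the group (Dixon's 95% limit for 4 samples). Of 242 groups 13 passed, and chance flags about 1 in 20 groups. In the 9 mz mutant groups that passed, the sample apart was mz mutant 1, but some genes, PEK among them, were named because they were called only without it. The ratio was 0.834 in BomT3 at its dimmer probe, where mz mutant 1 read 10.39 and the others 12.16 to 12.51, and 0.85 in CG11893, also at its dimmer probe, with 12.24 against 14.63 to 15.05. It was 0.882 in BomS4 (13.41 against 14.32 to 14.45), 0.844 in Cyp4p2 (9.65 against 11.28 to 11.58), 0.859 in Hml (11.45 against 12.28 to 12.41) and 0.862 in PEK (12.42 against 13.60 to 13.79). Among genes that fell it was 0.842 in CG6638 (12.71 against 12.03 to 12.14), 0.857 in Cpr49Ae (9.79 against 8.27 to 8.48) and 0.89 in Cpr49Af (12.48 against 10.11 to 10.37). In each of these 9 genes mz mutant 1 lay on the wild type side of the other mz mutants.

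In wild type groups the lone sample was wild type 82 in eater, with a ratio of 0.993 (9.44 against 9.75 in the other 3 samples), and in Tsf1, with 0.895 (7.93 against 7.29 to 7.36). It was wild type 1 in Hsp26, with 0.892 (14.33 against 11.65 to 11.94), and in pll, with 0.914 (11.07 against 10.91 to 10.93).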

How the results depend on the processing

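No paired analysis was run, because the labels give no pairing, and mz mutant and wild type samples share only the number 1. Each rescued sample correlated at 0.987 to 0.988 with 1 wild type sample (rescued 2 with wild type 1, 1 with 2, 84 with 82 and 66 with 83), and wild type 1 and 2 at 0.989. The labels do not say which samples shared an array, so no such block was fitted. The count of probes called, 1028 in the 12 samples, was 664 with no replicate block, 219 with mz mutants and wild type fitted alone, 353 in all 24 samples, 0 in the low series alone, 341 in the high series alone, 122 with dye as a covariate, 3353 with array weights and 3599 at an adjusted p of 0.05. Genes called, 499, were in the same order 323, 94, 167, 0, 254, 65, 1452 and 1554. Quantile normalization, median centring and leaving out dim probes kept both counts within 1.5 times, and the mean of a gene's probes that of genes. Leaving out 1 sample gave 311 probes (without wild type 83) to 3367 (without mz mutant 1) and 141 to 1442 genes. Of the probes called 64.2% were higher, beside 73.6% with no replicate block, 90% with the 2 groups alone, 79.6% in all 24 samples, 80.6% in the high series, 92.6% with dye, 52.1% with array weights and 49.5% at an adjusted p of 0.05. Genes at that threshold were 750 higher and 804 lower, and with array weights 711 higher and 741 lower.

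Manf kept its sign throughout, from -0.49 in the low series to -2.06 in the high series, where it passed (adjusted p = 0.0069). It also passed with array weights (-1.52, adjusted p = 0.00378), at an adjusted p of 0.05 (-1.27) and without mz mutant 1 (-1.69). Leaving out 1 sample gave -1.69 to -1.0.

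Of the 98 named genes called, 27 passed in the same direction with the 2 groups alone, 42 in all 24 samples, 0 in the low series, 39 in the high series, 18 with dye and 65 with no replicate block, and 35 to 98 with 1 sample left out. The 76 called list members became 20, 31, 0, 50 and 14 in the first 5 of these settings, 47 with no replicate block, 193 with array weights, 207 at an adjusted p of 0.05 and 26 to 199 with 1 sample left out. Signs turned in CG6983, 1.60 for the mean of its probes, and in Ire1, -0.16 in the low series. In the low series, which holds 6 embryo samples, 6753 probes and 2223 genes had an unadjusted p below 0.05 in limma. The causes were not tested.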

Other observations

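Some further genes, chosen after their values were seen, belong to groups not described above. Of 3 measured transferrin genes, whose products carry iron, Tsf1 and Tsf3 rose and Tsf2 did not pass. Tsf3 read 10.34, 10.44, 10.80 and 10.28 in wild type and 12.76, 12.21, 12.59 and 12.36 in mz mutants, with no overlap, and rose by 2.01 (SE 0.18, adjusted p = 1.95e-04). Tsf1 read 7.36, 7.29, 7.93 and 7.29 against 8.90, 9.45, 9.59 and 9.69 and rose by 1.94 (SE 0.22, adjusted p = 6.70e-04), though only 1 of its 4 probes was called. Tsf2 stood at -0.02 (adjusted p = 0.973). Of the 4 measured metallothionein genes, which bind metal ions, MtnB alone was called, with 2.10 (SE 0.34, adjusted p = 0.00422). In rescued samples it stood at 1.56 (adjusted p = 0.185).

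The family of sterol-binding Npc2 genes moved in both directions. Npc2c read 7.87, 8.25, 8.98 and 8.85 against 10.82, 10.66, 11.03 and 11.41 and rose by 2.49 (SE 0.18, adjusted p = 6.98e-05). Npc2d read 12.82, 13.25, 13.65 and 13.34 against 12.17, 10.77, 11.83 and 11.60 and fell with -1.67 (SE 0.26, adjusted p = 0.00369). The other 6 measured members were not called. Hemese (He), a surface protein of haemocytes, read 8.96, 8.61, 9.34 and 9.50 against 10.25, 11.55, 12.17 and 11.38 and rose by 2.23 (SE 0.26, adjusted p = 8.25e-04). Stubble (Sb), a membrane protease of the epidermis, read 7.94, 7.93, 8.31 and 8.04 against 10.18, 10.06, 10.32 and 10.44 and rose by 2.20 (SE 0.24, adjusted p = 5.23e-04). In rescued samples He and Sb stood at 0.37 and -0.22, not called.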
